A study of Marmota monax with 20 samples.

Results

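Liver was compared with kidney within the same woodchucks. The libraries were chosen by their tissue label, which gave 6 of liver and 5 of kidney, 11 of the 20 libraries of the series, and they were paired by the label of the individual. Both tissues were sequenced in 5 animals, the females F6849 and F9150 and the males M4046, M4075 and M4091. The liver of the female F6852 had no kidney library and entered only where 6 livers are stated. All animals were adult Eastern woodchucks (*Marmota monax*) that were negative for woodchuck hepatitis virus. F6849 was born in a colony and was also the source of the genome assembly. No treatment, deletion or transgene was part of the design, and each library is whole tissue of 1 animal, from polyA RNA. Read counts were deposited for 30973 genes of the Monax4B annotation. Its rows carry no gene symbols, so genes appear below by their identifiers, and the tissue labels could not be checked against marker genes.

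The liver is built mainly of hepatocytes, which secrete most proteins of the blood plasma, store glycogen, make bile and clear ammonia and foreign compounds. The kidney filters the blood in its glomeruli and recovers water, salts, sugars and amino acids along a tubule whose segments differ in their cell types. Hepatocytes are also the cells that woodchuck hepatitis virus infects, and expression in uninfected liver is the baseline against which infection is read in this animal model.

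The total counts ran from 82874390 to 140252555 in liver and from 63682684 to 107167963 in kidney, and the ranges overlap. The normalization factors that correct for the composition of a library (TMM, fitted over the 10 paired libraries) did not overlap, with 0.591 to 0.631 in liver and 1.62 to 1.69 in kidney. The CPM levels below (counts scaled to a common library size) use normalization factors over all 20 libraries. The abundance classes and the filter at 10 CPM in at least 5 libraries use library totals instead. A gene at 10 CPM on the normalized scale was read with 447 to 735 counts in the 6 livers and with 924 to 1565 in the 5 kidneys. The lane numbers in the column names covered 7 lanes for the 11 libraries, and no animal had both tissues in 1 lane.

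The counts of liver lay in few genes. The number of most abundant genes that together held 50% of the counts was 108 in the liver of F6849, 95 in F9150, 124 in M4046, 113 in M4075 and 115 in M4091, and 78 in the liver of F6852. In kidney it was 1261 in F6849, 1300 in F9150, 1334 in M4046, 1296 in M4075 and 1247 in M4091. Every liver was below every kidney, and the tissue means were 106 ± 16.5 genes (SD, n = 6) and 1288 ± 34.4 genes (SD, n = 5). Within animals, the difference, liver minus kidney, was -1177 ± 33.6 genes (SD, n = 5 pairs), with liver lower in 5 of 5 animals (two-sided exact test over sign changes, p = 0.0625, the smallest that 5 animals allow). To hold 90% of the counts, 3427 ± 80.1 genes were needed in liver (SD, n = 6) and 6904 ± 128 in kidney (SD, n = 5). The difference within animals was then -3453 ± 157 genes, liver minus kidney (SD, n = 5 pairs).

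**Figure D1:**
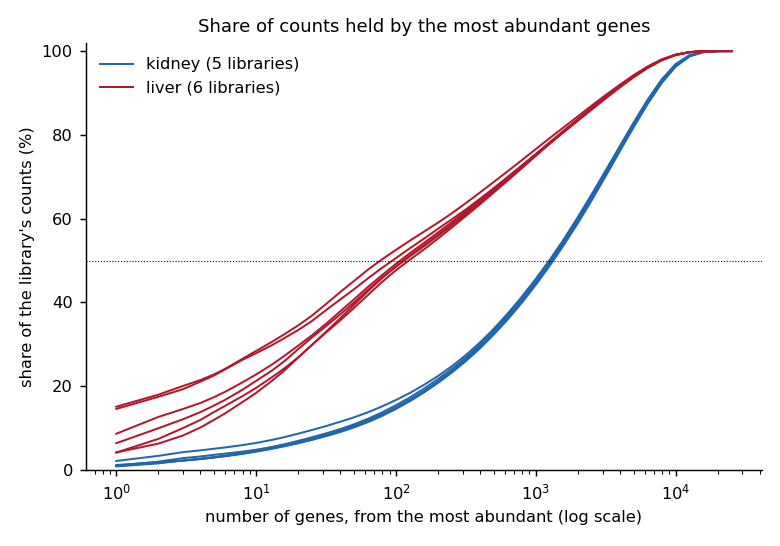
Share of a library's counts (%) held by its most abundant genes, against the number of genes counted from the most abundant (log scale), with 1 line per library for 6 livers (red) and 5 kidneys (blue). The curves cross the dotted line at 50% between 78 and 124 genes in liver and between 1247 and 1334 genes in kidney.

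Single genes took larger shares in liver. The most abundant gene of a library held 4.18% to 15.1% of the counts in the 6 livers and 0.878% to 2.18% in the 5 kidneys. It was Monax4B019954 in every liver. In kidney it was Monax4B042242 in 4 of the 5 libraries and Monax4B021576 in that of M4091. The 100 most abundant genes of each library held 49.5% ± 1.76 of the counts in liver (SD, n = 6) and 15.3% ± 0.858 in kidney (SD, n = 5). When the 100 genes of highest mean share were taken for each tissue, 10 were on both lists. The 100 genes of liver held 47.3% to 51.8% of the counts in livers and 3.45% to 4.08% in kidneys, while those of kidney held 14.3% to 15.97% in kidneys and 4.85% to 5.84% in livers. By the test below, 99 of the 100 genes of liver were higher in liver, against 29.4% of all genes tested, and 46 of the 100 genes of kidney were lower in liver, against 34.0%. The lists were chosen by the level in these same libraries, so that these counts are a description.

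The abundance classes, set on the share of each library's own counts, followed the same division. Genes of at least 1000 CPM held 50.5% of the counts in the liver of F6849, 50.6% in F9150, 48.8% in M4046, 49.8% in M4075, 49.3% in M4091 and 52.5% in F6852. In kidney they held 11.8%, 11.04%, 10.5%, 10.8% and 12.4% of the counts in F6849, F9150, M4046, M4075 and M4091. The tissues did not overlap, and within animals liver was higher by 38.5 ± 0.988 percentage points (SD, n = 5 pairs; 5 of 5 animals; two-sided exact test over sign changes, p = 0.0625, the smallest possible). There were 107 ± 5.68 such genes in a liver (SD, n = 6) and 53.8 ± 4.32 in a kidney (SD, n = 5). On the normalized scale, genes of at least 1000 CPM held 56.8% ± 0.591 of the counts in liver (SD, n = 6) and 8.02% ± 1.04 in kidney (SD, n = 5). The difference within animals was then 48.6 ± 1.13 percentage points (SD, n = 5 pairs). The class of 100 to 1000 CPM held 27.5% ± 1.31 of the counts with 1099 ± 43.4 genes in liver (SD, n = 6), and 53.3% ± 0.676 with 2395 ± 39.9 genes in kidney (SD, n = 5). The class of 10 to 100 CPM held 19.6% ± 0.429 in liver (SD, n = 6) and 33.0% ± 0.507 in kidney (SD, n = 5), with 6091 ± 117 and 8413 ± 185 genes. Genes of 1 to 10 CPM were more numerous in every liver (5768 to 6042) than in any kidney (5177 to 5356), as were those under 1 CPM (7340 to 7923 and 6302 to 6924). The former held 2.16% to 2.55% of the counts of a library and the latter 0.168% to 0.192%.

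**Figure D2:**
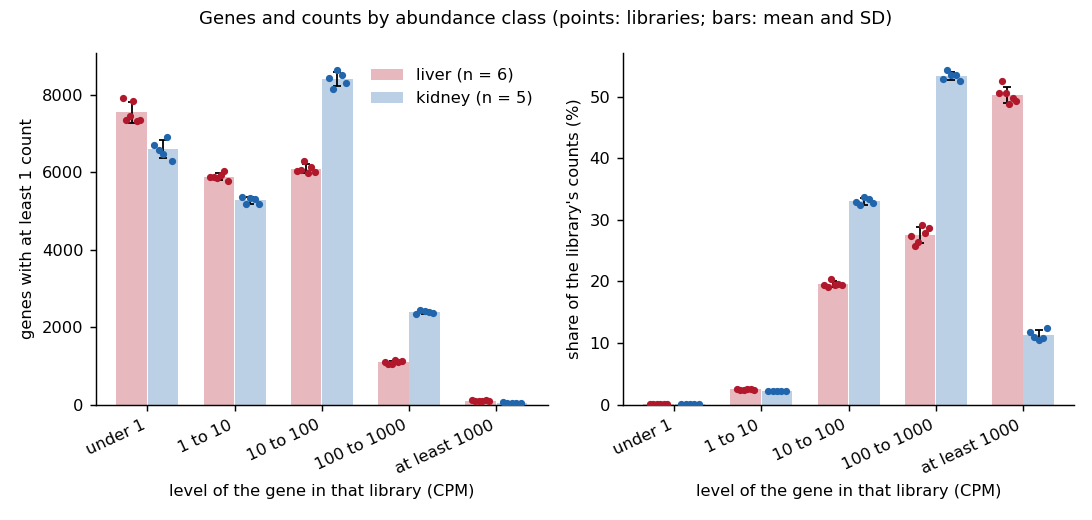
Number of genes with at least 1 count (left) and share of the library's counts in % (right) by the level of the gene in that library in CPM on the library total, for 6 livers (red) and 5 kidneys (blue), with a point per library and bars for the mean and SD. Liver holds 50.3% of its counts in genes of at least 1000 CPM, kidney 53.3% in genes of 100 to 1000 CPM.

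Fewer genes were detected in liver at equal depth. After every library had been thinned at random to 63682684 counts, the smallest total, at least 10 counts were found for 16767 genes in the liver of F6849, 16922 in F9150, 16736 in M4046, 17002 in M4075, 16540 in M4091 and 16709 in F6852. In kidney there were 19475, 19139, 19793, 19531 and 19279 genes in F6849, F9150, M4046, M4075 and M4091. Every liver lay below every kidney. The difference within animals was -2650 ± 308 genes, liver minus kidney (SD, n = 5 pairs; lower in 5 of 5 animals; two-sided exact test over sign changes, p = 0.0625, the smallest possible). The composition factors given above also differ between the tissues, so that a gene of equal CPM had fewer counts in a liver than in a kidney, and the part of this in the difference was not tested.

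Across all 11 libraries, 15511 of the 30973 genes (50.1%) had at least 10 counts in every library and 5269 (17.0%) had 0 counts in every library. A further 72 genes had at least 10 counts in all 6 livers and 0 counts in all 5 kidneys, and 197 had at least 10 counts in all 5 kidneys and 0 in all 6 livers. The 2 sets differed in level, with a median of 5.62 CPM in liver for the first and 0.782 CPM in kidney for the second. The rule is set in counts, and 10 counts stand for a lower CPM in a kidney than in a liver. The lowest mean was 0.334 CPM among the 72 genes and 0.103 CPM among the 197. The part of the rule in the number and level of these genes was not tested. A mean of over 10 CPM was reached by 30 of the 72 genes and by 31 of the 197, and 111 of the 197 were under 1 CPM. Together the 72 genes held 0.289% ± 0.0571 of the counts of a liver (SD, n = 6) and the 197 genes held 0.253% ± 0.0249 of those of a kidney (SD, n = 5). With a minimum of 1 CPM in every library in place of 10 counts, the numbers were 37 and 60. With up to 2 counts allowed in each library of the other tissue there were 101 genes of liver and 433 of kidney. In the 9 libraries of other tissues, 14 of the 72 genes and 26 of the 197 had 0 counts throughout. Among the tissues with 1 library, at least 10 counts were found for 6 of the 72 and 53 of the 197 in heart, 11 and 85 in lung, 11 and 44 in pancreas, and 2 and 41 in thymus. At least 1 of the 5 spleens had them for 11 and 76. Within a tissue the sets varied between animals, and the highest library was over 10 times the lowest for 19 of the 72 genes and for 24 of the 197. The share over all genes of like level was not computed, so that no trait of these sets is read from it.

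The levels of single genes were compared by edgeR's quasi-likelihood test with the animal as a block, over the 19481 genes kept after low counts were filtered out. At a false discovery rate of 0.05, 12364 genes differed between the tissues (63.5% of those tested), of which 5736 were higher in liver (29.4%) and 6628 were lower (34.0%). More genes were lower than higher in liver in this fit, although in fits that included spleen the order turned, with 6646 higher and 6397 lower in the 15 libraries of 3 tissues with the animal as a block. With library sizes alone, without composition factors, 9.49% of the differing genes were higher in liver in place of 46.4%, and the median difference of all genes moved from -0.07 to -1.51 on the log2 scale. All differences given here are therefore relative to the composition-corrected centre. In whole tissue, fewer cells of a type and less RNA per cell cannot be told apart.

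The differences were unequal in size. The median of the absolute difference was 0.85 on the log2 scale. The quartiles of the signed difference were -1.12 and 0.66, and its outer percentiles, at 5% and 95% of the genes, were -4.89 and 3.19. Among genes past the threshold the median was 1.18 for those higher in liver and -1.84 for those lower, with a median standard error of 0.21. A difference of over 2-fold was found for 8207 genes past the threshold (3336 higher and 4871 lower in liver), over 8-fold for 3127 (1029 and 2098) and over 32-fold for 1481 (559 and 922). Of the 1481, 299 had 0 counts in every paired library of the lower tissue and carry a fitted value that depends on the prior count. With these set to their bounds at 3 counts over the tissue, 559 and 860 genes were over 32-fold. The 95% interval of the difference lay within 2-fold in either direction for 6666 genes, 2333 of them past the threshold. Of the 7117 genes not past the threshold, 4333 (60.9%) had such an interval, and for the others a difference of over 2-fold was not excluded by it.

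**Figure D3:**
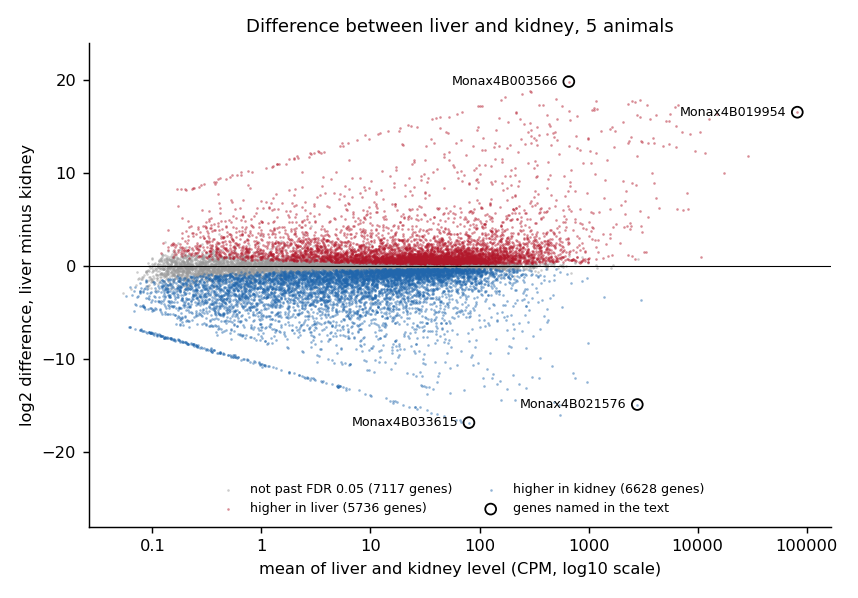
Fitted log2 difference, liver minus kidney, against the mean of the 2 tissue levels (CPM, log10 axis) for 19481 genes, colored by the edgeR test at a false discovery rate (FDR) of 0.05, with the 4 named genes circled. The straight upper and lower edges are genes with 0 counts in one tissue, whose fitted values depend on the prior count, and 113 of the 116 genes past the threshold at 1000 CPM or more are higher in liver.

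The direction varied with the level. By the mean of both tissues, 425 genes were higher in liver and 1414 lower among those under 1 CPM, and 1213 and 2339 at 1 to 10 CPM. At 10 to 100 CPM the numbers were nearly equal, with 2801 higher and 2573 lower. At 100 to 1000 CPM, 1184 were higher and 299 lower, and at 1000 CPM or more 113 were higher and 3 lower. A gene far higher in a single tissue is placed in a class by that tissue, so level and difference are not independent here. In the top class of 121 genes the median level was 4179 CPM in liver and 20.1 CPM in kidney, and 93 genes were over 8-fold higher in liver. The share of genes past the threshold rose over these classes from 49.9% of 3685 genes under 1 CPM to 95.9% of the 121, while the median standard error was 0.50 under 1 CPM, 0.14 at 10 to 100 CPM and 0.52 at 1000 CPM or more.

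By counts, the division was more uneven than by genes. The 5736 genes higher in liver held 85.0% ± 0.417 of the counts of a liver (SD, n = 6) and 35.3% ± 0.930 of those of a kidney (SD, n = 5). The 6628 genes lower in liver held 4.29% ± 0.143 of the counts of a liver (SD, n = 6) and 36.9% ± 1.27 of those of a kidney (SD, n = 5). These shares were computed in the libraries that chose the genes and are given as a description. In the 5 spleens, which the fit did not use, the same genes held 39.0% ± 0.949 and 22.9% ± 0.796 (SD, n = 5). On the scale of CPM, the genes higher in liver had a median level of 43.0 for the livers, 14.97 for the kidneys and 14.4 for the spleens. For the genes lower in liver these medians were 2.03, 10.5 and 5.86. The spleen lay below both tissues for 50.3%, between them for 32.6% and above both for 17.1% of the genes higher in liver. For the genes lower in liver these shares were 19.5%, 46.2% and 34.3%.

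By a rule, 4 genes were named, 2 in each direction. The first had the largest fitted fold change at a mean of at least 100 CPM in its tissue. The second had the largest difference in mean CPM. The rule took only genes past the threshold whose tissues did not overlap, so that this is no finding for them. Monax4B019954 had the largest difference in level. Its counts were 12171700 in the liver of F6849, 13274229 in F9150, 5623768 in M4046, 3781442 in M4075, 6049915 in M4091 and 12537909 in F6852. In the kidneys of F6849, F9150, M4046, M4075 and M4091 they were 79, 331, 68, 350 and 181. The level was 163930 ± 88201 CPM in liver (SD, n = 6) against 1.56 ± 0.903 CPM in kidney (SD, n = 5), and the log2 difference was 16.53 ± 0.94 (SE; edgeR, adjusted p = 1.75e-05). The livers of the 3 females had 165640, 258340 and 280710 CPM and those of the 3 males 77032, 80269 and 121600 CPM, so that the sexes did not overlap in this gene. The 3 female livers lay above the 3 male livers for 10.5% of the 19481 genes tested and below them for 12.1%, and nothing is read from it in single genes. Its share of the counts was 8.68%, 14.6% and 15.1% in the female livers and 4.18%, 4.21% and 6.42% in the male livers.

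Monax4B003566 had the largest fitted fold change toward liver among genes of at least 100 CPM, a value that depends on the prior count. It had 101990 counts in the liver of F6849, 141774 in F9150, 34612 in M4046, 27946 in M4075, 44664 in M4091 and 80164 in F6852, and 0 counts in each of the 5 kidneys. The level in liver was 1317 ± 863 CPM (SD, n = 6), at least 279513-fold higher than in kidney at a floor of 3 counts over the 5 kidneys (edgeR, adjusted p = 0.000233). Most counts are even numbers, as when both reads of a pair are counted, and with 3 read pairs as the floor this bound and the next would be lower by a factor of 2. The 3 female livers, at 1388, 1795 and 2759 CPM, lay above the 3 male livers, at 494, 569 and 898 CPM. In the other tissues the gene had at most 38 counts, in thymus.

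Monax4B033615 had the largest fold change toward kidney. It had 18044 counts in the kidney of F6849, 19140 in F9150, 12752 in M4046, 29016 in M4075 and 21132 in M4091, and 0 counts in each of the 6 livers. The level in kidney was 160 ± 46.4 CPM (SD, n = 5), at least 18034-fold higher than in liver at a floor of 3 counts over the 6 livers (edgeR, adjusted p = 0.000161). Its fitted value depends on the prior count, and by this bound alone it does not rank above Monax4B021576. The kidneys spanned 121 to 229 CPM, a narrower range than that of either gene of liver. It had at most 24 counts in any other library, in a spleen.

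Monax4B021576 had the largest difference in level toward kidney. It had 214170 counts in the kidney of F6849, 211966 in F9150, 340296 in M4046, 1037980 in M4075 and 1391006 in M4091, and between 2 and 16 counts in the 6 livers. The mean level in kidney was 5590 ± 5691 CPM (SD, n = 5), an SD as large as the mean, against 0.132 ± 0.108 CPM in liver (SD, n = 6). The log2 difference, liver minus kidney, was -14.87 ± 0.68 (SE; edgeR, adjusted p = 8.96e-06). The kidneys of the females had 1458 and 1560 CPM and those of the males 3239, 6635 and 15056 CPM; the male kidneys lay above the female kidneys for 11.5% of all genes tested. Its difference from liver, for which the rule chose it, was larger than the variation of over 10 times between kidneys. All 4 genes kept their direction and passed the threshold in every alternative fit. These fits reuse the libraries that chose the genes, so that this is a description.

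**Figure D4:**
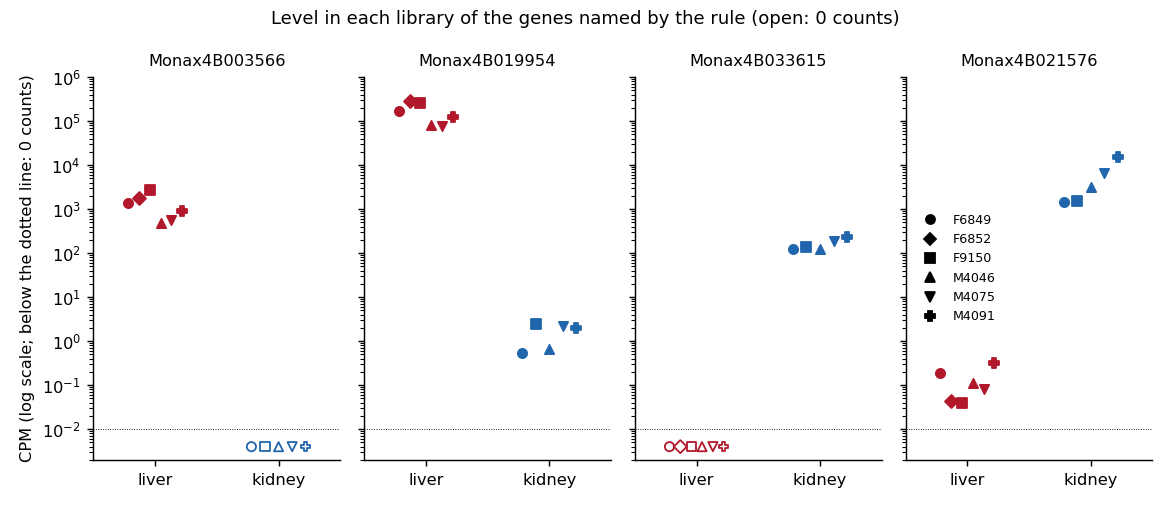
Level in CPM (log axis) of the 4 genes named by the rule in each of 6 livers (red) and 5 kidneys (blue), with a symbol per animal and open symbols below the dotted line for 0 counts. The rule asked for tissues that do not overlap, and Monax4B021576 spans 1458 to 15056 CPM between kidneys.

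The direction held from animal to animal. All 5 animals had the same sign of difference at 12817 of the 19481 genes (65.8%) and at 95.7% of the genes past the threshold. The same libraries called these genes, so that the 95.7% and the counts per animal against the call are a description. The difference was over 2-fold in every animal for 5449 genes, 2126 of them higher and 3323 lower in liver, and over 8-fold in every animal for 1776. The genes past the threshold that went against the common direction numbered 71 in F6849, 216 in F9150, 127 in M4046, 50 in M4075 and 68 in M4091, so that F9150 differed most often. For a check on libraries that took no part in the call, each animal was left out, the genes were called on the other 4 and the sign was read in the animal left out. It was the same for 98.3% of the called genes in F6849, 94.7% in F9150, 96.5% in M4046, 98.6% in M4075 and 97.4% in M4091. Over all genes tested, called or not, the sign was the same for 83.5% to 87.9%. The liver of F6852, which also took no part, lay on the called side of the mean of the kidneys for 98.3% of the genes. Over all genes tested, called or not, it lay on the side of the fit for 89.2%. It was above all 5 kidneys for 90.1% of the genes higher in liver and below all 5 for 94.3% of those lower. The share of all genes tested that lay beyond all 5 kidneys in this liver was not computed. The 90.1% and 94.3% are therefore a description, with no background to set them against. These 5 kidneys did take part in the call, so that only the liver was new to it.

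The column names give lane numbers and no flow cell, so that equal numbers may be different lanes. Lane number 1 was that of the liver of F6849 and the kidney of M4075, and lane number 5 that of the liver of M4091 and the kidney of M4046. In these pairs of different animals, examined after seeing the data, the difference had the sign of the fit at 88.8% and 88.3% of all genes tested. The 4 libraries took part in the fit, so that this is a description, and the part of the lane in the differences was not tested by it. With the lane number as the block in place of the animal, 8661 genes passed the threshold, 3848 higher and 4813 lower in liver. Only lane numbers 1 and 5 held both tissues, so that the tissue difference of that fit rests on the same 4 libraries, unpaired by animal.

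The spread of a gene between animals was larger in liver for most genes. Over the tested genes, the median SD of log2 CPM over the 5 animals was 0.37 in liver and 0.29 in kidney, and kidney had the larger SD for 35.7% of the genes. The median SD of the difference within animals was 0.45, and it was 0.52 when computed as if the 2 libraries of an animal were independent. An SD of over 1 was found for 2171 genes in liver (11.1%) and 1625 in kidney (8.34%), and for 630 in both. Genes are not replicates, and these medians are a description. At 10 CPM or more in both tissues the medians were 0.24 and 0.18, so that the order was the same where counts were not few. By the level in the tissue itself, liver had the larger median SD at under 1 CPM (0.71 against 0.56), at 1 to 10 CPM (0.41 against 0.35), at 10 to 100 CPM (0.26 against 0.20) and at 100 to 1000 CPM (0.27 against 0.20). At 1000 CPM or more, with 197 genes in liver and 25 in kidney, the medians were 0.35 and 0.36. The order turned in the 121 genes with a mean of at least 1000 CPM over both tissues, where the median SD was 0.36 in liver and 0.72 in kidney and kidney had the larger SD for 74.4%. Their median level in kidney was 20.1 CPM, as given above. The smaller number of counts per CPM in liver moves with this order, and its part in it was not tested.

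The animals contributed unequally to the spread. The median deviation of a liver from the mean of the other 4 livers was 0.30 in F6849, 0.37 in F9150, 0.30 in M4046, 0.29 in M4075 and 0.27 in M4091 on the log2 scale. For the kidneys it was 0.22, 0.27, 0.21, 0.22 and 0.28 in the same order of animals. Liver deviated more than kidney in 4 of the 5 animals, and F9150 had the liver and M4091 the kidney farthest from the others.

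**Figure D5:**
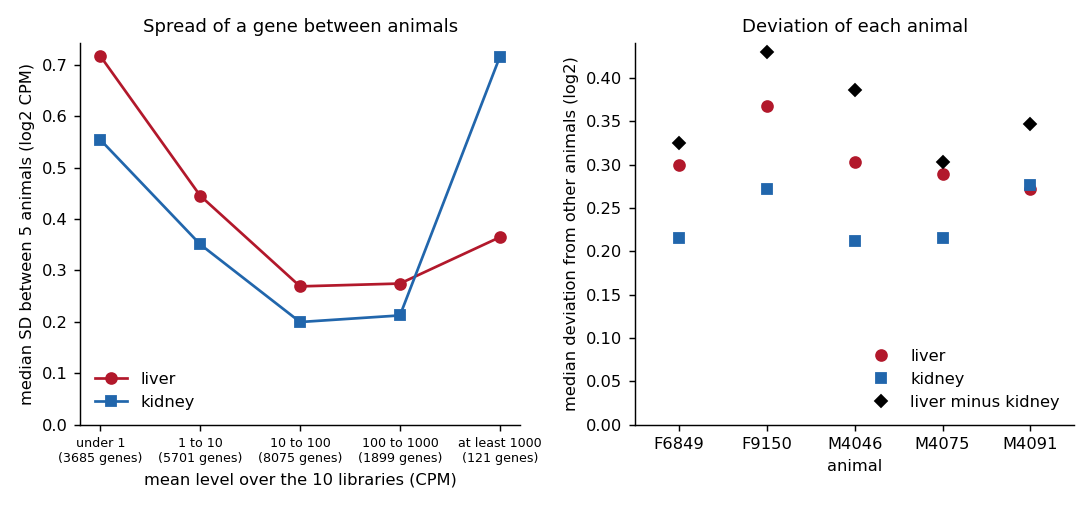
Left, median SD of log2 CPM over 5 animals by the mean level of the gene over the 10 libraries (CPM), for liver (red circles) and kidney (blue squares), with the number of genes in each class; liver is higher in each class but the last, where the medians are 0.36 and 0.72. Right, median deviation (log2) of each animal's liver, kidney and liver-kidney difference (diamonds) from the mean of the other animals, with the largest deviation of the difference, 0.43, in F9150 and the lowest, 0.30, in M4075.

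Whether the difference between the tissues depended on sex was tested in the same fit with a tissue-by-sex term, for 2 females and 3 males. By edgeR, 0 of 19481 genes passed the false discovery rate of 0.05, and the smallest adjusted p was 0.213. At an unadjusted p under 0.05 there were 2072 genes (10.6%), and with DESeq2 746 genes passed the same rate. The count therefore depends on the tool, and the named-gene rule selected none for sex. The mean differences of females and males, described across genes with no test, had a Pearson's r of 0.95 over 19481 genes and a median absolute gap of 0.37 on the log2 scale. All animals of one sex were of one sign and all of the other sex of the opposite sign at 556 genes (2.85%). The ranges of the difference in females and in males, whatever the sign, were apart at 5987 genes (30.7%). With 2 females and 3 males, ranges can be apart at a gene by chance, and this share was not tested.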

How the data were processed

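The deposited values are raw read counts per gene, without normalization. The authors used the gem-tools rna-mapper for mapping and gemtools, on the Monax4B annotation, for counting; CASAVA 1.8.4 and FastQC 0.11.5 are in the submitters' processing notes. In each library 85.1% to 86.2% of nonzero counts were even, as when mates are counted singly. Animals are the replicates. Sex was taken from the letter of the individual label and lanes from the column names, which give no flow cell.

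Counts were filtered (filterByExpr), scaled (TMM) and tested in R 4.3.3 with edgeR 4.0.16, robust quasi-likelihood, with the animal as a block and Benjamini-Hochberg adjustment. Levels are CPM with TMM factors over 20 libraries, while shares, abundance classes and the filter at 10 CPM use library totals. log2 CPM has a prior count of 2. The pairing comes from the individual label; deviations from the tissue means correlated at 0.116 to 0.316 within animals, each over 0.1. Values per library were tested over the 32 sign changes within animals. On simulated counts for this comparison with 19199 genes, 46.4% of 97 genes changed 2-fold and 89.0% of 100 changed 4-fold were recovered, with 3 false calls. In the data 63.5% of the genes tested differed. Recovery at such a share was not tested, nor was the number of false calls. No 2 libraries of a tissue agreed within sampling noise (chi-square per degree of freedom of at least 121).

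The named genes are 2 per direction, past the threshold with non-overlapping libraries. They have the largest fitted fold change among genes of at least 100 CPM, or the largest difference in mean CPM. The libraries, lists and tests were chosen with earlier results of these data known. The alternatives were DESeq2 1.42.0, robust observation weights, a non-robust fit, RLE factors, library sizes alone, other filters, a test for over 2-fold, other blocks, halved counts, other minima and prior counts, and each animal left out. A RefSeq gene table matched none of the identifiers. Plots were made in matplotlib 3.10.9 (Python 3.11.15).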

Additional observations from a re-analysis of the deposited data

Results flagged for a closer look

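The kidney of M4046 had a TMM factor of 1.54 over the 20 libraries, above those of the other 4 kidneys, at 1.45 to 1.47. Its gap to the nearest kidney, divided by the range of the 5, was 0.780, above the limit of 0.710 for 5 samples (Dixon's test at 95%). This was 1 of 25 sets of values examined, and chance flags about 1 set in 20. Without M4046, 11518 genes differed between the tissues.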

How the results depend on the processing

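Of 219 values under an alternative, 196 stayed within a limit set for each kind of value. No named gene or value per library changed direction. For the number of differing genes the limit was a ratio. Against 12364 genes, 8661 with the lane as block and 16995 with library sizes alone stayed within it. For values per library the limit was a change of direction or a p under 0.05, which sign changes over 5 animals cannot give. The number of differing genes was 7408 at a minimum of 10 CPM in at least 5 libraries and 6168 in the test for over 2-fold, where fewer genes are tested or a larger difference is asked. With library sizes alone, 9.49% of the differing genes were higher in liver and the median log2 difference was -1.51; 66.6% of the calls were shared and 2485 genes were called in the opposite direction. The median was -0.0552 with DESeq2 and -0.0548 with RLE factors, -0.24 with no filter, -0.0193 at the minimum of 10 CPM, -0.0910 with the lane as block, and between -0.0888 (without F6849) and -0.0683 with an animal left out. It turned to 0.0303 with no replicate block in 16 libraries of 3 tissues and to 0.0182 with the replicate block in 15. Without the block for the animal, 12206 genes differed in 10 libraries and 12597 in 11. The block changed no call of a named gene, though these genes were chosen for their differences in the same libraries. Unpaired exact permutation tests of 6 livers against 5 kidneys gave p = 0.00217, the smallest possible, for genes detected at equal totals (-2664, liver minus kidney), genes holding 50% of the counts (-1182) and the share of genes of at least 1000 CPM (38.9 percentage points). For the dependence on sex, DESeq2 called 746 genes. At 1 CPM in every library, 37 genes were detected in liver only and 60 in kidney only. With up to 2 counts allowed in the other tissue, 101 were detected in liver only and 433 in kidney only. Among genes of at least 10 CPM in both tissues the median SD was 0.24 in liver, 0.18 in kidney and 0.27 for the difference; with an animal left out that of liver was 0.33 (without F9150) to 0.37. The cause of these shifts was not tested. Depth limits the genes under 1 CPM, and p-values rest on 5 animals.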
